A study of Homo sapiens with 8 samples.

Results

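The mRNAs of 10 heat shock proteins were followed in RNA bound to ribosomal protein S6 (RPS6) and in the matching input RNA of 4 cancer cell lines. They were chosen by gene name, with no rule on their values but with earlier results of these data known. They are 10 of the 57756 genes listed in the expression tables. The 6 cytosolic members are HSPA8, HSPA1A, HSPA1B, HSP90AA1, HSP90AB1 and DNAJB1, the 2 mitochondrial members are HSPD1 and HSPE1, and the 2 members of the endoplasmic reticulum (ER) are HSPA5 and HSP90B1. All 10 had 1 entry each and passed the minimum on counts used in the test.

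Heat shock proteins are chaperones that bind unfolded proteins and help them to reach or keep their folded form. HSP70 proteins hold short exposed stretches of a client protein and are driven by J-domain proteins, HSP90 proteins act later on clients that are nearly folded, and the HSP60 and HSP10 chaperonins close a folding chamber in the mitochondrion. Some genes of these families are transcribed in all cells, while others are switched on by heat shock factor 1 when unfolded proteins accumulate in the cytosol, or by the unfolded protein response when they accumulate in the ER.

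RNA immunoprecipitation (RIP) with an RPS6 antibody, which pulls down a protein of the small ribosomal subunit with the RNA attached to it, was sequenced in the cell lines Hep3B (liver cancer), HCT116 (colorectal cancer), DU145 (prostate cancer) and SW1990 (pancreatic cancer). A RIP library and an input library of lysate RNA were made from each line, and no treatment is named in the labels. The liver cancer pair is called Hep3B in the titles and Huh7 in another field of those labels, and the first name is used here. Cell lines pair the libraries and are the only replicates, so that values within a cell line are given without a test. The p-values over the 4 pairs judge the mean change from input to RIP against its variation between cell lines. RIP is compared with input only, and a control antibody was not analysed here, so that binding to beads or antibody cannot be told apart from binding to RPS6.

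The inputs held between 35796276 and 54209591 fragments and the RIP libraries between 34630231 and 42610124, so that depth was similar in both. The 10 most abundant genes took between 9.63% and 66.5% of the summed FPKM (fragments per kilobase of transcript, scaled to 1000000 mapped fragments) in the inputs, and between 4.37% and 7.90% in RIP. Of the 6 liver markers ALB, AFP, APOA1, TTR, FGB and SERPINA1, the summed level was 6306 FPKM in the Hep3B input and between 0.854 and 17.1 FPKM in the other inputs. The other tissue markers separated the lines less well. CDX1, VIL1 and LGR5 were listed at 0 in HCT116 input, KLK3 was listed at 0 in DU145 input, and 2 blood cell markers summed to at most 0.395 FPKM in any library.

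Of the 10 members, 4 were higher in RIP than in input (HSPA1A, HSPA1B, DNAJB1 and HSPA5), 3 were lower (HSPE1, HSP90B1 and HSPD1), and 3 did not pass the test (HSPA8, HSP90AB1 and HSP90AA1). The libraries are of bulk RNA, in which fewer cells with an mRNA and less of it per cell cannot be told apart. Estimated counts were compared with the quasi-likelihood test of edgeR, blocked by cell line, with Benjamini-Hochberg adjustment over 19921 genes and a threshold of 0.05. Over all tested genes 26.5% were higher in RIP, 24.9% were lower and 51.4% passed in either direction, against 4, 3 and 7 of the 10 members. The median log2 fold change was 0.54 for the 10 members, -0.05 for all tested genes and 0.13 for the protein-coding genes among them. Without the cell line as a block, HSPA1A and HSPA1B alone remained among the 4 higher members and HSPE1 and HSP90B1 among the 3 lower ones.

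In FPKM, the RIP libraries lay wholly above the inputs for 4 members (HSPA8, HSPA1A, HSPA1B and DNAJB1) and wholly below them for 1 member (HSPE1). Over all tested genes this was so for 10.9% upward and 8.17% downward. HSPA8 was the most abundant member in input and ranked between 27 and 136 among protein-coding genes over the 8 libraries. HSPA1A was the least abundant member in input, and its ranks over the 8 libraries of both kinds lay between 1788 and 7281.

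**Figure D1:**
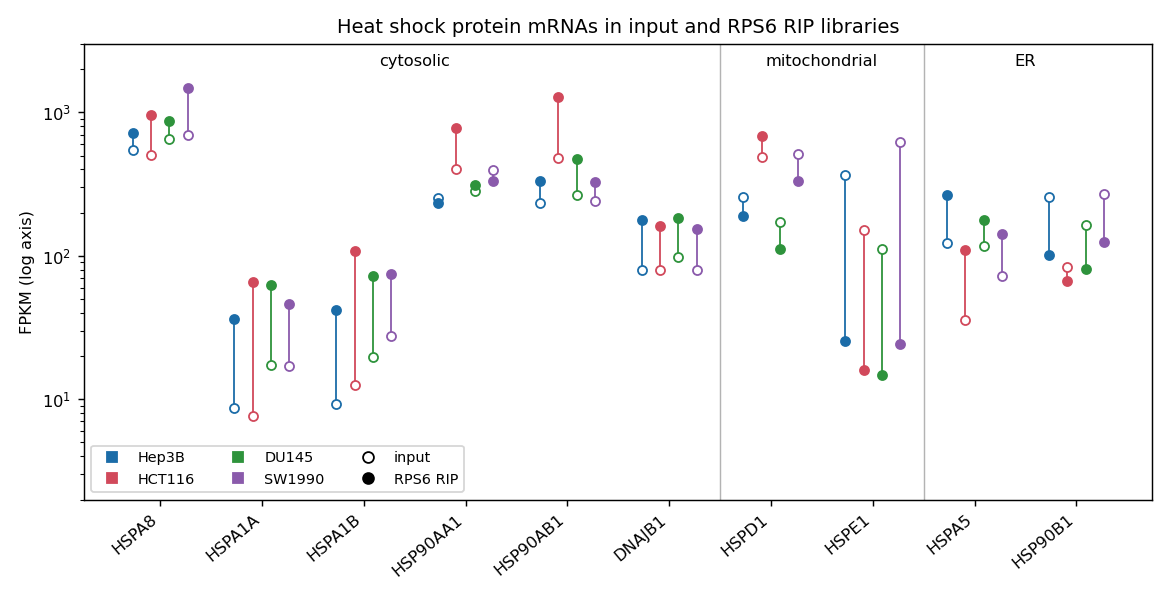
FPKM of the 10 members on a log axis in input (open circles) and RPS6 RIP (filled circles), with a line for each cell line joining its 2 libraries. HSPA1A and HSPA1B rise in every cell line from a low input level, and HSPE1 falls in every cell line to between 14.7 and 25.7 FPKM.

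HSPA1A and HSPA1B encode the stress-inducible cytosolic HSP70, and had the largest rise among the members. HSPA1A stood at 8.67, 7.61, 17.4 and 16.9 FPKM in the inputs of Hep3B, HCT116, DU145 and SW1990, and at 36.2, 65.8, 62.9 and 46.1 FPKM in RIP. HSPA1B stood at 9.25, 12.5, 19.8 and 27.5 FPKM in the same inputs and at 41.8, 108.7, 72.9 and 75.1 FPKM in RIP. For both genes the lowest RIP library was above the highest input. HSPA1A was 4.40-fold higher in RIP (log2 fold change 2.14, SE 0.26, adjusted p = 7.8e-05, edgeR), and HSPA1B was 4.51-fold higher (log2 fold change 2.17, SE 0.26, adjusted p = 7.6e-05, edgeR). The rise was largest in HCT116, at 8.65-fold for HSPA1A in FPKM, and smallest in SW1990, at 2.72-fold.

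The 2 genes are near-identical copies, and how the authors' counting divided shared fragments between them is not given in the sources used here, so that the separate values are uncertain. HSPA1B per HSPA1A was 1.07, 1.65, 1.14 and 1.62 in the inputs and 1.15, 1.65, 1.16 and 1.63 in RIP, in the order above. The ratio differed between cell lines and hardly within them. Summed to 1 gene, the pair was still higher in RIP. The files place HSPA1A at chr6:31777395-31785723, a locus entry that also holds HSPA1L, and HSPA1B at chr6:31795511-31798031 (hg19). HSPA1L, at 0.224 to 1.13 FPKM, carried little signal.

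The copies are alike upstream of their starts as well, and their sequences are shown because they carry a heat shock element, the motif that heat shock factors bind. In RefSeq's promoter table (GRCh38.p14), 235 of 249 aligned bases before the start were the same in both (94.4%). Capitals mark the heat shock element, searched as GAANNTTC or TTCNNGAA, each of which reads the same on both strands. HSPA1A lies at chr6:31815423-31815542 and HSPA1B at chr6:31827619-31827737, both on the plus strand and ending at the base before the start.
HSPA1A: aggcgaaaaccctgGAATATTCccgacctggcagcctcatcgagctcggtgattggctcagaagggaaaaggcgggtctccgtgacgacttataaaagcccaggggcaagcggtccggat
HSPA1B: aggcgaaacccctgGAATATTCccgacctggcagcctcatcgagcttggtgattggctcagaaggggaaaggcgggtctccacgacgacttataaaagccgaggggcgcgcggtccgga

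HSPA8 encodes the constitutive cytosolic HSP70, which folds newly made proteins in unstressed cells. It stood at 544, 503, 653 and 699 FPKM in the inputs of Hep3B, HCT116, DU145 and SW1990, and at 713, 966, 872 and 1490.4 FPKM in RIP. All 4 RIP libraries were above all 4 inputs in FPKM. In estimated counts the log2 fold change was 0.53 (SE 0.24) and did not pass the test (adjusted p = 0.0879, edgeR), while DESeq2 on the same counts gave an adjusted p of 0.00524.

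HSPA8 exceeded the summed inducible pair by 30.4, 25.02, 17.6 and 15.7 times in the inputs and by 9.15, 5.54, 6.42 and 12.3 times in RIP. The ratio of constitutive to inducible HSP70 mRNA was thus lower in RIP in every cell line. The log2 ratio of RIP to input of HSPA1A exceeded that of HSPA8 by 1.55, 2.02, 1.38 and 0.30, with a mean of 1.31 ± 0.73 (SD, n = 4, exact sign-flip permutation test over cell lines, two-sided, p = 0.125). With 4 cell lines 0.125 is the smallest p this test can give.

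The promoter of HSPA8, at chr11:123062137-123062256 on the minus strand, is shown for comparison because it belongs to a gene that is active without stress and still holds the element. A pair of overlapping elements is in capitals, and another pair lies outside the bases shown.
HSPA8: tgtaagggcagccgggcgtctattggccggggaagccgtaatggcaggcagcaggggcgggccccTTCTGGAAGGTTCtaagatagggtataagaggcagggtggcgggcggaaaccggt

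DNAJB1 encodes a J-domain protein (HSP40) that hands unfolded proteins to HSP70. It stood at 79.9, 79.5, 97.7 and 79.1 FPKM in the inputs and at 176.7, 161.5, 183.9 and 152.9 FPKM in RIP. The groups did not overlap, and the cell lines differed less than for any other member, with a log2 ratio of 0.999 ± 0.10 (SD, n = 4). In estimated counts DNAJB1 was 1.68-fold higher in RIP (log2 fold change 0.75, SE 0.18, adjusted p = 0.00565, edgeR). The locus entry, chr19:14625581-14676792 (hg19), also holds TECR.

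HSP90AA1 and HSP90AB1 encode the 2 cytosolic HSP90 proteins, the first more inducible by stress and the second more constitutive. HSP90AA1 stood at 253, 405, 281 and 396 FPKM in the inputs and at 235, 783, 311 and 332 FPKM in RIP. The groups overlapped, and the FPKM was higher in RIP in HCT116 and DU145 and lower in Hep3B and SW1990. In estimated counts its log2 fold change was -0.30 (SE 0.27, adjusted p = 0.389, edgeR), and on the FPKM scale the mean log2 ratio was 0.18 ± 0.54 (SD, n = 4), so that its direction depended on the unit.

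HSP90AB1 stood at 232, 481, 266 and 241 FPKM in the inputs and at 332, 1289.9, 474 and 329 FPKM in RIP. It was higher in RIP in all 4 cell lines, although the groups overlapped because the HCT116 input lay above most RIP libraries. In estimated counts it did not pass the test (log2 fold change 0.56, SE 0.26, adjusted p = 0.0926, edgeR), while limma on log2(FPKM + 1) gave an adjusted p of 0.0369 and DESeq2 one of 0.0239.

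HSP90AB1 per HSP90AA1 was 0.918, 1.19, 0.945 and 0.607 in the inputs and 1.42, 1.65, 1.52 and 0.990 in RIP. The constitutive gene thus gained on the inducible one in every cell line. The difference of their log2 ratios was 0.62, 0.47, 0.69 and 0.70, with a mean of 0.62 ± 0.10 (SD, n = 4, exact sign-flip permutation test over cell lines, two-sided, p = 0.125). This is the opposite order to the HSP70 genes, where the inducible pair gained on the constitutive gene.

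**Figure D2:**
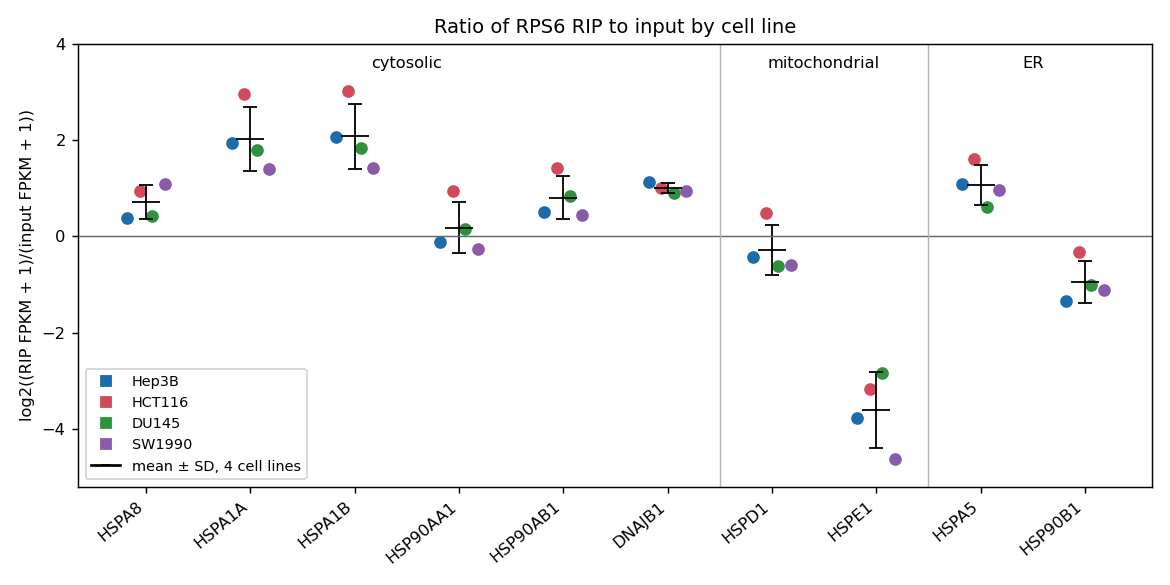
Log2 ratio of RPS6 RIP to input, on FPKM with 1 added to both, for each member and cell line, with the mean ± SD over 4 cell lines in black. Points above 0 are higher in RIP. HSPE1 lies lowest, with a mean of -3.61, HSPA5 and HSP90B1 lie on opposite sides of 0, and HCT116 is the only cell line in which HSPD1 lies above 0.

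HSPD1 encodes the mitochondrial chaperonin HSP60 and HSPE1 its lid HSP10, so that both products work in the same complex. HSPE1 stood at 366, 150.4, 112 and 624 FPKM in the inputs of Hep3B, HCT116, DU145 and SW1990, and at 25.7, 15.9, 14.7 and 24.2 FPKM in RIP. Every RIP library lay far below every input, and HSPE1 was 13.3-fold lower in RIP (log2 fold change -3.74, SE 0.27, adjusted p = 1.2e-05, edgeR). The inputs differed 5.57-fold between the highest and the lowest cell line and the RIP libraries 1.74-fold.

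HSPD1 stood at 255, 490.3, 172 and 510.0 FPKM in the inputs and at 189, 685, 112 and 335 FPKM in RIP. It was lower in RIP in 3 cell lines and higher in HCT116 by FPKM, while in TMM-normalized counts it was lower in all 4. In estimated counts it was 1.89-fold lower in RIP (log2 fold change -0.92, SE 0.26, adjusted p = 0.0122, edgeR). The call was lost without DU145 (adjusted p = 0.0589, edgeR) and on log2(FPKM + 1) (log2 fold change -0.29, adjusted p = 0.390, limma).

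The 2 units differ by the estimated count per FPKM, which depends on the transcript length assigned to a gene and on the scaling of each library. This value was not the same in both kinds of library. Relative to library size it was 0.543 times as high in RIP as in input for HSPD1, against a median of 0.699 over 13561 protein-coding genes with a middle range of 0.619 to 0.785. HSP90B1, at 0.570, and HSP90AA1, at 0.574, also lay below that range, and HSPA1A and HSPA1B, at 0.812 and 0.810, lay above it.

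Partners of 1 complex thus differed within every pair of libraries. HSPE1 per HSPD1 was 1.43, 0.307, 0.654 and 1.22 in the inputs and 0.136, 0.0232, 0.131 and 0.0722 in RIP. The log2 ratio of RIP to input was lower for HSPE1 than for HSPD1 by a mean of -3.32 ± 0.77 (SD, n = 4, exact sign-flip permutation test over cell lines, two-sided, p = 0.125), and lower in each of the 4 cell lines.

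HSPD1 and HSPE1 are neighbours that are transcribed away from each other, and the files give both the same locus entry, chr2:198351304-198418423 (hg19), together with MOB4 and the read-through gene HSPE1-MOB4. The read-through gene held at most 424 estimated counts, in SW1990 input, where HSPE1 held 10688. In RIP the read-through gene held 64.5, 61.3 and 70.9 in Hep3B, HCT116 and SW1990, where HSPE1 held 492, 276 and 437. In DU145 RIP it held almost none. MOB4 held between 276 and 2565 estimated counts over all libraries. Pseudogene copies by name, of which 26 were listed for HSPE1 and 15 for HSPD1, held between 0.767% and 4.06% of the count of HSPE1 and between 0.523% and 0.995% of that of HSPD1. The starts lie 104 bases apart in RefSeq (GRCh38.p14), and the bases between them are shown because they are the shared promoter of 2 mRNAs that differed in RIP. They lie at chr2:197500275-197500378 and are given on the strand of HSPE1, with no heat shock element of the letters above.
HSPD1 to HSPE1: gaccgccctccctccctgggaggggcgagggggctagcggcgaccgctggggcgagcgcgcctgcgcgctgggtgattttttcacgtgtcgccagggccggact

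HSPA5 encodes BiP, the HSP70 of the ER lumen, and HSP90B1 encodes GRP94, the HSP90 of the same compartment. HSPA5 stood at 124, 35.6, 116 and 72.5 FPKM in the inputs and at 264, 110.2, 177 and 143 FPKM in RIP. It was higher in RIP in every cell line, although the HCT116 RIP library lay below the inputs of Hep3B and DU145, by 1.69-fold in estimated counts (log2 fold change 0.76, SE 0.23, adjusted p = 0.0170, edgeR). The call was lost without Hep3B (adjusted p = 0.0519), without HCT116 (adjusted p = 0.0900) and with scaling on protein-coding genes (adjusted p = 0.0550, all edgeR).

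HSP90B1 stood at 259, 83.8, 165 and 270.4 FPKM in the inputs and at 102, 66.3, 80.7 and 125 FPKM in RIP. It was lower in RIP in every cell line, although the HCT116 input lay below the RIP libraries of Hep3B and SW1990, and 2.66-fold lower in estimated counts (log2 fold change -1.41, SE 0.24, adjusted p = 0.000665, edgeR). HSP90B1 per HSPA5 was 2.09, 2.35, 1.41 and 3.73 in the inputs and 0.385, 0.602, 0.455 and 0.873 in RIP. The order of the pair was therefore turned in each of the 4 cell lines, with HSP90B1 above HSPA5 in every input and below it in every RIP library.

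The log2 ratio of HSP90B1 was below that of HSPA5 by a mean of -2.02 ± 0.33 (SD, n = 4, exact sign-flip permutation test over cell lines, two-sided, p = 0.125). In all, 4 pairs of members were compared in this way, and after Benjamini-Hochberg adjustment the p stayed at 0.125 for each. The pairs were chosen after their values were seen.

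**Figure D3:**
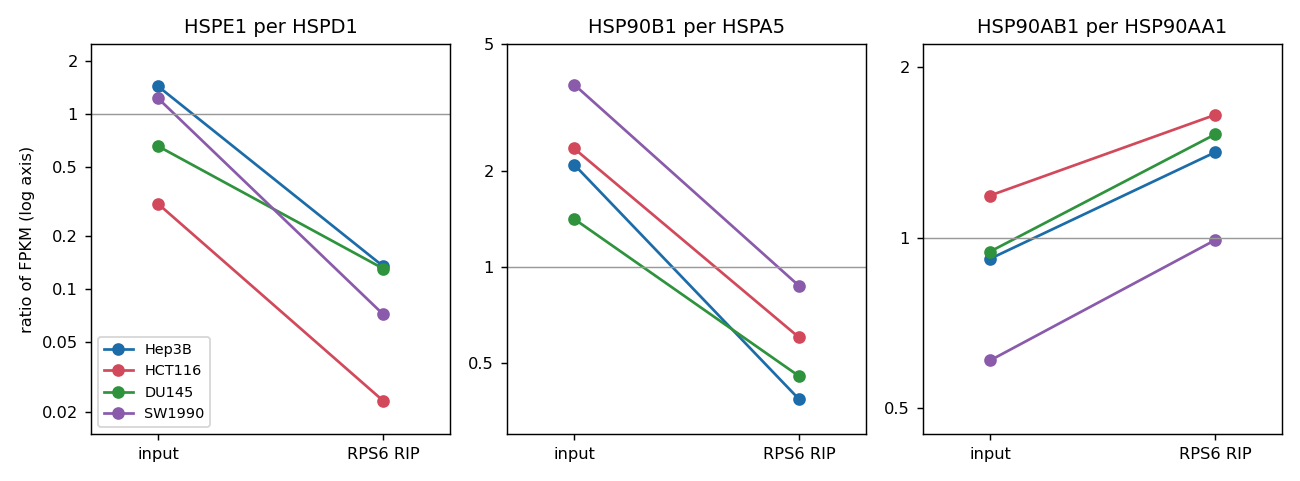
Ratio of the FPKM of partner mRNAs in input and RPS6 RIP on log axes, with a line for each cell line and a grey line at 1. HSPE1 per HSPD1 and HSP90B1 per HSPA5 fall in all 4 cell lines, and HSP90AB1 per HSP90AA1 rises in all 4.

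The ER pair also shares a promoter feature. An ER stress element, searched on both strands as CCAAT and CCACG with 9 bases between them, was found in the 250 bases before the start of HSPA5 and of HSP90B1 and of no other member. Over all genes in RefSeq's promoter table the share was 0.0916%. The sequences of both are shown because the 2 mRNAs share the element and moved in opposite directions in RIP. HSPA5 lies at chr9:125241344-125241463 on the minus strand and HSP90B1 at chr12:103930290-103930409 on the plus strand, with the element in capitals, which in HSP90B1 reads on the opposite strand, and a further element of HSP90B1 lies outside the bases shown.
HSPA5: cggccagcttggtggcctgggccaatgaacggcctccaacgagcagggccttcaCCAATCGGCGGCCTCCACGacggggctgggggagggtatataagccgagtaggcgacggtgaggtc
HSP90B1: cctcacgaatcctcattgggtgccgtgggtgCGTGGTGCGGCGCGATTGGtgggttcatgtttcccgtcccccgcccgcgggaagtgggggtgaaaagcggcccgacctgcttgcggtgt

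The heat shock element was found in 7 of the 10 members, all 6 cytosolic members and HSPD1, where it lay upstream of an alternative start. Over all genes in the table the share was 14.0%. The letters are short and the windows were not filtered for activity, so that these are matches and not sites.

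By compartment, the mean log2 ratio of RIP to input (FPKM + 1) over the 6 cytosolic members was 0.99, 1.72, 0.99 and 0.84 in Hep3B, HCT116, DU145 and SW1990. Over the 2 ER members it was -0.12, 0.63, -0.21 and -0.07, and over the 2 mitochondrial members -2.11, -1.34, -1.73 and -2.62. The order cytosolic, ER, mitochondrial held in every cell line. The ER mean was below the cytosolic mean by -1.08 ± 0.12 and the mitochondrial mean by -3.08 ± 0.30 (SD, n = 4).

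These means do not describe their members well. Without HSP90B1 the ER difference was -0.068 and without HSPA5 it was -2.08, and without HSPE1 the mitochondrial difference was -1.42. Without HSPA1A and HSPA1B the ER difference was -0.62 and the mitochondrial one -2.62. With 2 members in each organelle the comparison describes these mRNAs only.

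Across cell lines, the highest input level in FPKM was in SW1990 for 5 members, in HCT116 and DU145 for 2 each, and in Hep3B for 1 member. In RIP the highest level was in HCT116 for 5 members. With 1 library for each cell line and fraction there is no spread against which to read these orders. Input levels differed least for DNAJB1, 1.23-fold between the highest and lowest cell line, and most for HSPE1, 5.57-fold. In RIP they differed least for DNAJB1, 1.20-fold, and most for HSPD1, 6.12-fold. Both ER members had their lowest level in HCT116 in both fractions, and both cytosolic HSP90 genes had their highest level there.

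The 10 members together took 0.494%, 0.651%, 0.565% and 0.705% of the estimated counts of the inputs and 0.386%, 0.787%, 0.488% and 0.566% of those of the RIP libraries. The share was higher in RIP in HCT116 and lower in the other 3 cell lines. As a share of summed FPKM it was higher in RIP in all 4 (0.128% in input and 0.307% in RIP of Hep3B). The sum itself differed, at 1659968 FPKM in Hep3B input and 688722 FPKM in Hep3B RIP. The mitochondrial members took between 0.0340% and 0.115% of the inputs and between 0.0110% and 0.0653% of RIP, lower in every pair. The cytosolic members took between 0.294% and 0.498% of the inputs and between 0.275% and 0.679% of RIP.

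Implied length moved with the ratio over 13561 protein-coding genes. The implied length of each gene was its estimated count per FPKM in the inputs, relative to library size. It was 0.501 kb for HSPE1, 1.70 kb for HSPD1, 2.11 kb for HSPA8 and 2.59 kb for DNAJB1. The other members lay between 3.62 and 4.62 kb. The value also depends on the scaling of the libraries, and for HSPA1B, at 3.63 kb, it exceeded the whole locus entry. These kb therefore order genes on a relative scale and are not transcript lengths. The median log2 fold change of protein-coding genes was -0.98 below 0.75 kb (673 genes), -0.30 from 0.75 to 1.5 kb, 0.17 from 1.5 to 3 kb, 0.30 from 3 to 5 kb and 0.76 above 5 kb. These bins were chosen after the values were seen, and the part of length in the members' ratios was not tested.

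Within its own bin, HSPE1 lay 2.76 below the median, and 10 of 673 genes had a lower log2 fold change. HSP90B1 lay 1.72 below the median of genes from 3 to 5 kb, where 10.1% were lower, and its partner HSPA5 lay 0.45 above the same median. HSPA1A and HSPA1B lay above 92.0% and 92.6% of that bin. HSPA5, HSPA8, DNAJB1 and HSP90AB1 lay near the middle of their bins, with between 56.7% and 65.6% of genes lower.

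**Figure D4:**
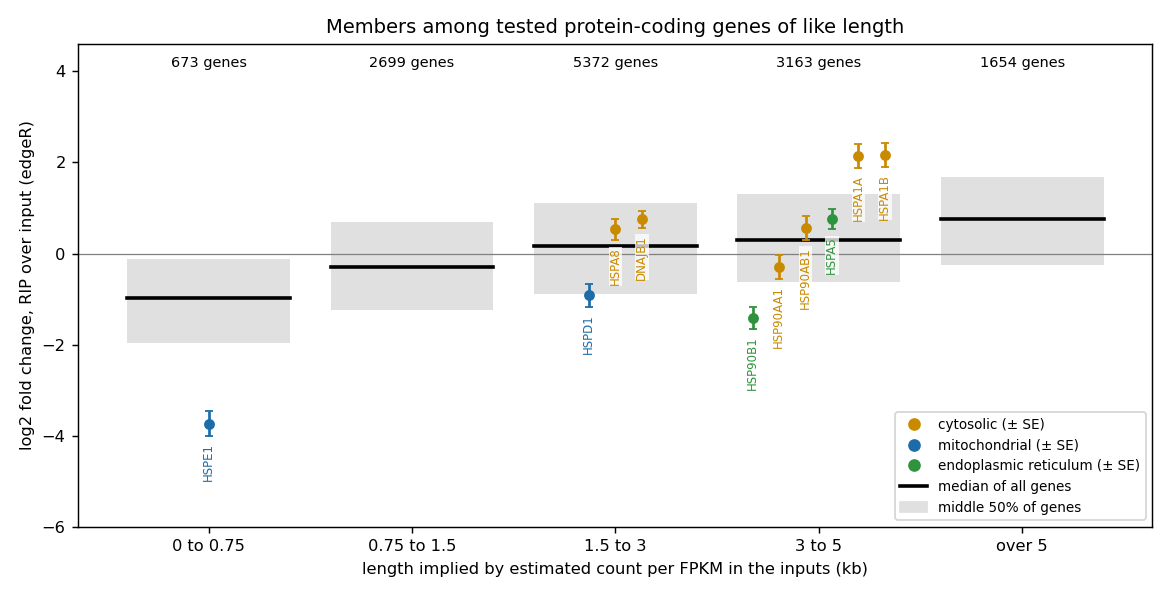
Log2 fold change of RIP over input (edgeR) of the members ± SE, placed in bins of implied length in kb, with the median (black line) and the middle 50% (grey box) of all tested protein-coding genes in each bin. The medians rise with implied length, a relative scale, from -0.98 to 0.76. HSPE1, HSP90B1 and, by a small margin, HSPD1 lie below the grey box of their bin, and HSPA1A and HSPA1B lie above it.

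The wider chaperone network was read from 8 lists of 80 genes, of which 79 were tested (CRYAB was too low). They are called chaperone genes here, although 3 of them are heat shock factors and LONP1 is a protease. In RIP 18 were higher, 38 were lower and 23 did not pass, against 26.5% higher and 24.9% lower over all tested genes. The median log2 fold change was -0.38, against -0.05 over all tested genes and 0.13 over protein-coding ones. The lists were not tested as lists, and the counts of each are to be read against the same shares. Among the other cytosolic HSP70, HSP110 and small HSP genes, 1 of 8 was higher and 3 were lower. HSPA2, a HSP70 gene best known from testis, had a log2 fold change of 1.59 (adjusted p = 0.00289, edgeR) at a mean of 1.65 FPKM in input, and HSPA4, an HSP110 exchange factor, one of -1.13 (adjusted p = 0.000355, edgeR). HSPH1 (-0.02) and the small heat shock protein HSPB1 (0.40) did not pass.

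DNAJB1 was higher in RIP. Of the 10 other cytosolic J-domain genes, 8 were lower in RIP and 1, DNAJB2, was higher with a log2 fold change of 0.77. DNAJB4, which belongs to the same class as DNAJB1, had one of -2.46 (adjusted p = 3.8e-05, edgeR), and DNAJA1, a J-domain partner of HSPA8, one of -1.83 (adjusted p = 7.5e-05, edgeR).

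Of 16 cochaperones of HSP70 and HSP90, 6 were higher, 7 were lower and 3 did not pass, with a median of -0.21. UNC45A, an HSP90 cochaperone for myosin folding, was 6.09-fold higher, and HSPBP1, a nucleotide exchange factor of HSP70, was 4.93-fold higher. PPID, a cyclophilin bound to HSP90, was 6.35-fold lower and CHORDC1, another HSP90 partner, was 4.05-fold lower. All 4 genes moved the same way in all 4 cell lines, with adjusted p between 1.3e-05 and 2.2e-05 (edgeR).

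Of the 8 TRiC subunits, the cytosolic counterpart of HSPD1, 2 were higher, 1 was lower and 5 did not pass. CCT7 (1.16) and CCT3 (0.93) were the higher ones, and TCP1 stood at 0.21. All 6 prefoldin subunits, which pass unfolded actin and tubulin to TRiC, were lower, from -2.30 to -3.98 for PFDN4, and PFDN5 stood at -2.61. Like HSPE1, prefoldin genes were short on the scale of implied length, at 0.532 to 1.32 kb. The medians of all protein-coding genes were -0.98 below 0.75 kb and -0.30 from 0.75 to 1.5 kb. The part of length in the prefoldin ratios was not tested.

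Of 11 other mitochondrial chaperones, 2 were higher, 5 were lower and 4 did not pass, with a median of -0.22. TRAP1, the mitochondrial HSP90, had a log2 fold change of 1.87 and the protease LONP1 one of 1.85. DNAJC19, a J-domain protein of the import motor, stood at -3.07 and GRPEL2, an exchange factor, at -2.20. HSPA9, the mitochondrial HSP70, did not pass (0.25, adjusted p = 0.511, edgeR).

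Of 17 other ER chaperones, 5 were higher, 7 were lower and 5 did not pass, with a median of -0.29. P4HB, a protein disulphide isomerase, had a log2 fold change of 1.55 and SERPINH1, the collagen chaperone, one of 1.45. DNAJC3 (-1.61) and DNAJB9 (-1.58), both J-domain partners of BiP, were lower. CALR, the lectin chaperone calreticulin, stood at 0.02 and did not pass.

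**Figure D5:**
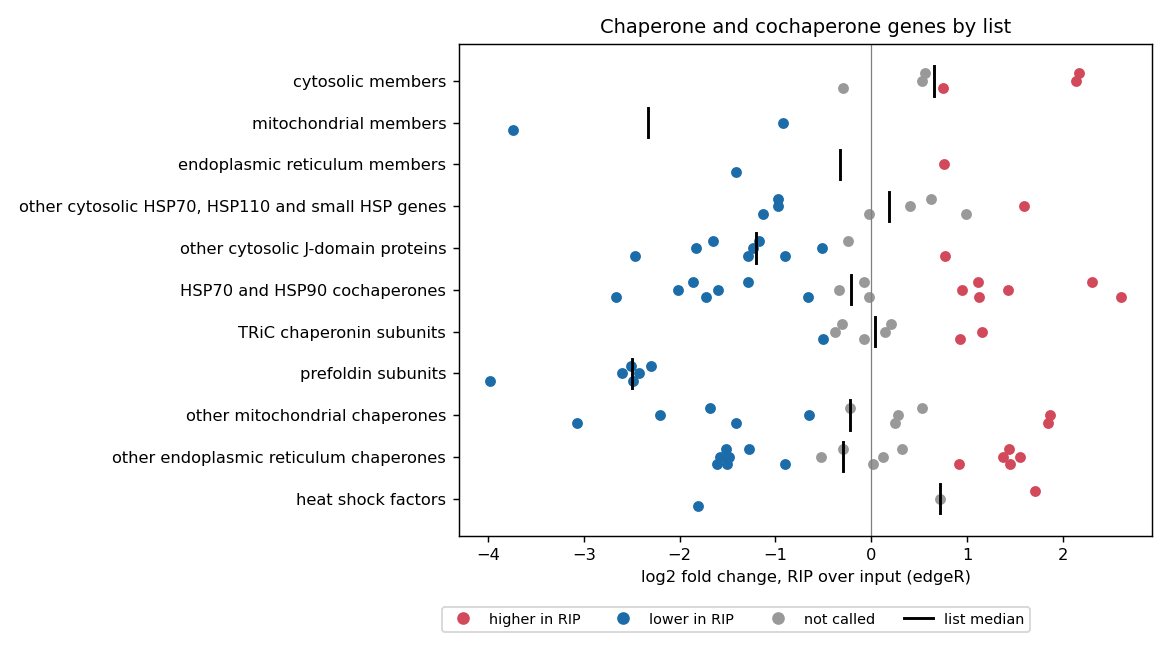
Log2 fold change of RIP over input (edgeR) of the members and of 79 genes of the other lists, heat shock factors included. Each gene is 1 point, coloured by whether it was higher, lower or not called, and the list median is a black bar. All 6 prefoldin subunits lie at or below -2.30, and most other lists hold genes on both sides of 0.

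Over the 8 libraries, the genes whose log2(FPKM + 1) was most like that of HSPA8 among 8898 genes were SIX5 (Pearson r = 0.984), CTB-58E17.9 (0.980) and RAB11FIP3 (0.979). For HSPD1 they were METTL2A (0.974), PDHB (0.973) and PPP1R8 (0.965), and for HSPA5 they were AJUBA (0.973), CARD8 (0.970) and ACP2 (0.970). No other member was among the 3 most alike of any of them. The 8 points share cell lines and fractions, so that these values are descriptions.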

How the data were processed

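RNA from RPS6 RIP and from input of 4 cell lines was sequenced, 1 library each. Per the labels, TruSeq stranded total RNA libraries were made, CASAVA 1.8 and TopHat2 2.0.9 were used, and the genome build was hg19. The counting tool, its annotation and its strand setting are not given in the sources used here. The authors deposited, for 57756 genes, FPKM and estimated counts, and both tables were used. Estimated counts were scaled by 1 factor for each library, and dividing by that factor made between 92.5% and 93.9% of the low values whole within 0.01, which gave the fragments used for depth. The authors' fold changes, p-values and q-values for each cell line were not used.

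Estimated counts were rounded and tested with edgeR 4.0.16 (R 4.3.3), TMM, a minimum mean of 10 counts and a block for the cell line. The design had assumed raw counts. RIP libraries deviated from their group mean together with their own input (r from 0.851 to 0.904 across genes). With any other input r was -0.026 or lower, which follows in part from subtracting the group means. In simulated data of this design (19451 genes), 23 of 100 genes changed 1 log2 unit and 68 of 99 changed 2 units were recovered. There were 4 false calls among 95. Only these genes were changed, against 51.4% of genes called in the data. Adjustment is stricter where few genes change, so that these shares are not the recovery in the data. Ratios used log2 of FPKM + 1, which understates changes of low genes, and exact sign-flip tests over cell lines.

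Alternatives used no block, DESeq2 1.42.0, other minimums on counts, limma 3.58.1 on FPKM with 1 or 0.1 added, scaling on protein-coding genes, HSPA1A and HSPA1B summed, other units for shares and levels, and each cell line left out. Recovered fragments in the test, leaving out single organelle members, the pairs of members, the length bins and TMM-normalized counts for levels were added after the values were seen. Named were all members, of each other list up to 2 genes highest and 2 lowest among those past the threshold in 1 direction in all 4 cell lines, 6 further genes in any case, and for 3 members the 3 most alike genes. The members and lists were chosen with earlier results of these data known. Promoters are from RefSeq (GRCh38.p14), which matched all 10 members, and were searched over 250 bases before each start. Python 3.11.15 with pandas 2.3.3 was used for the remaining steps.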

Additional observations from a re-analysis of the deposited data

Results flagged for a closer look

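HSP90AB1 had an outlying high level in HCT116 in both fractions, at 481 FPKM in input and 1289.9 FPKM in RIP. The other 3 cell lines lay between 232 and 266 FPKM in input and between 329 and 474 FPKM in RIP. DNAJB1 had an outlying high input level in DU145, at 97.7 FPKM, while the other inputs lay between 79.1 and 79.9 FPKM. The log2 ratio of RIP to input of HSPD1 was outlying in HCT116, at 0.48, against -0.43, -0.61 and -0.60 in Hep3B, DU145 and SW1990. These 4 came from a search of 30 groups of 4 values, in which chance alone gives a few.

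For HSPD1 and HSP90AA1 the FPKM ratio lay on opposite sides of 1 in different cell lines. The difference between the highest and lowest cell line was 1.09 for HSPD1 and 1.20 for HSP90AA1 on the log2 scale, and these differences were not tested, since each cell line has 1 pair of libraries.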

How the results depend on the processing

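Without the replicate block, that is without pairing by cell line, 2 members were higher and 7 and 17 other chaperone genes were higher and lower, against 4, 18 and 38. HSP90AA1 turned from -0.30 to 0.18 with limma on FPKM with either pseudocount, and the cause was not tested. Leaving out each cell line in turn gave 3 to 4 higher and 2 to 3 lower members, 18 to 19 higher and 34 to 37 lower other chaperone genes, an ER difference of -1.13 to -1.04 and a mitochondrial difference of -3.20 to -2.96. The ER difference, -1.08, was -1.29 in TMM-normalized counts, -0.62 without HSPA1A and HSPA1B, -2.08 without HSPA5 and -0.068 without HSP90B1. The mitochondrial difference, -3.08, was -2.62 without HSPA1A and HSPA1B, -1.42 without HSPE1 and -4.74 without HSPD1. As a share of summed FPKM the members took 0.128%, 0.229%, 0.213% and 0.332% of the inputs and 0.307%, 0.650%, 0.381% and 0.442% of RIP, higher in RIP in every cell line. Over all genes, edgeR called 5282 higher and 4960 lower with the block and 1427 and 1344 without it. Scaling on protein-coding genes moved the median log2 fold change of all genes from -0.05 to -0.25 and every member with it. HSPA1A, HSPE1 and HSP90B1 passed the test in all 13 alternatives with their direction kept, and HSPA1B in all 12 in which it stood alone. Genes changed by 1 log2 unit were mostly missed in simulated data in which few genes changed, a setting unlike these data. The simulation therefore does not give the recovery here. The members that did not pass are still not shown to be equal in RIP and input.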

Other observations

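Of the 3 heat shock factors on the lists, 1 was higher in RIP and 1 was lower, against 26.5% and 24.9% of all tested genes. HSF1, which switches on the stress-inducible members, stood at a mean of 48.1 FPKM in input and 137 FPKM in RIP and was higher in all 4 cell lines (log2 fold change 1.71, SE 0.21, adjusted p = 7.9e-05, edgeR). HSF2 stood at 11.5 and 4.53 FPKM and was lower in all 4 (log2 fold change -1.81, SE 0.24, adjusted p = 0.000131, edgeR). The third factor on the list, HSF4, did not pass the test.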
